A study of Mus musculus with 15 samples.

Results

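The genes described here are the G1 cyclins and the inhibitors of their kinases, 10 of the 22032 gene symbols measured in mouse liver. They were chosen by name, as the probes that the scanner files assign to Ccnd1, Ccnd2, Ccnd3, Ccne1, Ccne2, Cdkn1a, Cdkn1b, Cdkn2a, Cdkn2b and Cdkn2c, and the rule uses no measured value. The array carries 17 probes for them, and all 10 were measured. The study compared male CD1 mice in 3 groups. Group C (Control) received saline in infancy and later the empty plasmid. Group T (DEN) received the liver carcinogen diethyl nitrosamine (DEN) in infancy and later the empty plasmid. Group G (Gas1) received DEN and a plasmid that expresses an HA-tagged Gas1, the growth arrest specific gene, from the strong ubiquitous CAG promoter. In all groups the plasmid was given weekly by hydrodynamic gene delivery (HGD), an injection into the tail vein that transfects liver cells, with 50 μg of DNA per the labels. The labels state an age of 10 weeks, which lies in the range the study's methods give for the mice obtained. Its results section describes much older animals, with developed hepatocellular carcinoma (HCC), at the time the livers were removed. HGD reaches only part of the liver cells, mostly those near blood vessels, and the RNA is from liver tissue with its tumors, so that fewer cells of a type and less RNA per cell cannot be told apart.

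Cyclins of the D type (Ccnd1, Ccnd2 and Ccnd3) bind the kinases CDK4 and CDK6 and carry mitogen signals into the cell cycle. Cyclins of the E type (Ccne1 and Ccne2) bind CDK2 and drive the entry into S phase, and their genes are known targets of the E2F factors that the retinoblastoma protein holds back. The inhibitors form a pair of families. The Cip/Kip proteins p21 (Cdkn1a) and p27 (Cdkn1b) bind several cyclin and CDK complexes, while the Ink4 proteins p16 (Cdkn2a), p15 (Cdkn2b) and p18 (Cdkn2c) bind CDK4 and CDK6 alone. In liver, most hepatocytes rest outside the cycle, Ccnd1 rises early when they are called to divide, and p21 holds damaged or stressed hepatocytes back.

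Of the 10 genes, 2 passed the test in group T against group C, Ccne1 and Cdkn2c, and both are shown by the sequence before their start sites. RefSeq start sites were at hand for 7 of the 10 genes, with 11 start sites in all. Each line gives the 250 bases before a start site of GRCm38.p6, read 5′ to 3′ on the gene's own strand, which is the minus strand for both genes. Capitals mark the GC box GGGCGG on either strand, a site that Sp1 factors are known to bind.
Ccne1, chr7:38107491-38107740: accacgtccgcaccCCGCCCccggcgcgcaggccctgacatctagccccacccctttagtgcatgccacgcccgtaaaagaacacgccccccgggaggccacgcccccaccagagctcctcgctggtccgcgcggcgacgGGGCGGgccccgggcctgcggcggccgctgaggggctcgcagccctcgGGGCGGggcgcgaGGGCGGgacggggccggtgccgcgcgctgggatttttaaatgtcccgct
Cdkn2c, first start site, chr4:109666757-109667006: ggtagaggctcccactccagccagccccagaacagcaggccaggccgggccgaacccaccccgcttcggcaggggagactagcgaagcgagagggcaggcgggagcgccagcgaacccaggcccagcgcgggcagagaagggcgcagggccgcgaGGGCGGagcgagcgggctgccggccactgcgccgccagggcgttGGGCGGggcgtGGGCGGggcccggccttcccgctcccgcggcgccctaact
Cdkn2c, second start site, chr4:109665373-109665622: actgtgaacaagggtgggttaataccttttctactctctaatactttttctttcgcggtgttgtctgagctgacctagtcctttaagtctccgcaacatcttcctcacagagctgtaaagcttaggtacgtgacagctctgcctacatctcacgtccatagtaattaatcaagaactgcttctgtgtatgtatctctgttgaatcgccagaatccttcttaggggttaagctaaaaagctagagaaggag
The Ccne1 window holds 4 GC boxes and a G and C content of 76%. The window at the first Cdkn2c start site holds 3 GC boxes and a G and C content of 77.2%, and the window at the second start site holds 0 and 42.8%. Among all 32851 windows of this length, 32.7% hold a GC box and the median G and C content is 52.4%. The E2F letters TTTCGCGC, TTTGGCGC, TTTCCCGC and TTTGCCGC, searched on both strands, occur in 1.86% of all windows. They occur in 0 of these 3 windows and in 1 of the 11 windows of the 7 genes, the more upstream of the 2 start sites of Cdkn2a.

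The measurements come from 15 arrays with 1 dye, of which 4 belong to group C, 5 to group T and 6 to group G. One RNA code was shared by arrays 3 and 4 of group C, and another by arrays 4 and 5 of group T. The SD of the log2 difference between such arrays was 0.146 and 0.143, against at least 0.291 and 0.235 for other arrays of these groups. They were averaged and counted as 1 liver, which leaves 3 livers for group C, 4 for T and 6 for G. No label states that the other samples come from separate animals, so the p-values measure the spread between these samples. Between 15707 and 29765 spots per array were well above background, and no spot was saturated. The arrays lay on 2 slides, each with all 3 groups. Slide 1 held 2 arrays of group C, 2 of T and 3 of G, and slide 2 held 2, 3 and 3. Arrays that share an RNA code lay on different slides, so values within each slide share livers and are not independent. All 8 hepatocyte markers were well above background on every array. Gas1 itself averaged 6.53 ± 0.09 in the 4 livers of group T and 6.61 ± 0.11 (SD) in the 6 of group G, a difference within the spread (adjusted p = 0.765 from limma). Whether its probes read the delivered sequence was not tested, and the groups are those of the labels. Levels are log2 intensities after background correction and quantile normalization, differences are log2 differences with their standard error (SE), and a gene was called at a Benjamini-Hochberg adjusted p under 0.05 from limma over all 22032 genes.

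Detection differed among the 10 genes. Ccnd1, Ccnd3, Cdkn1a and Cdkn1b had a probe well above background on all 15 arrays. Ccnd2 had one on 3 of 4 arrays of group C and on all arrays of groups T and G. Ccne1 was well above background on 0 of 4 arrays of group C, 5 of 5 of group T and 6 of 6 of group G. Cdkn2c was so on 0 of 4, 5 of 5 and 2 of 6 arrays. Cdkn2a reached it on 1 of 4, 3 of 5 and 3 of 6 arrays. Ccne2 and Cdkn2b reached it on no array, and for them only differences between values near the background can be given.

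**Figure D1:**
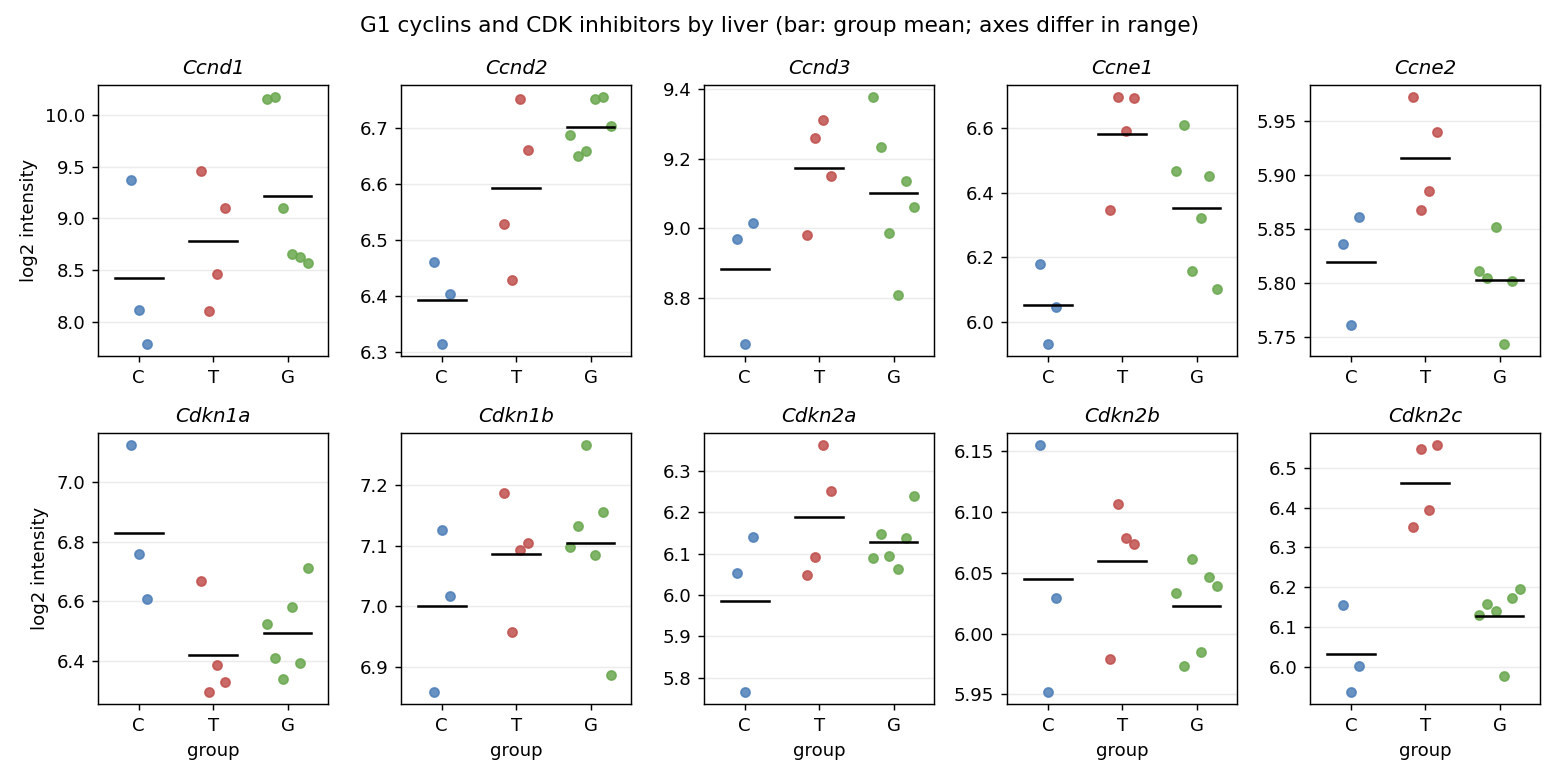
Log2 intensity of the 10 genes in each liver of group C (3 livers), group T (4) and group G (6, with 5 for Ccne2), each point a liver and each bar a group mean, on axes that differ in range between panels. In the Cdkn2c panel the 4 livers of group T, from 6.35 to 6.56, lie above all others, and in the Ccnd1 panel the livers of each group lie far apart.

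The first comparison asks which of these genes differ in the livers of DEN-treated mice. In group T, Ccne1 and Cdkn2c were higher than in group C, by 0.53 (SE 0.12) and 0.43 (SE 0.07), and no gene of the 10 was called lower. These are 2 called genes of 10, both higher, against 2.37% of all genes called and 1.18% called higher. At an unadjusted p under 0.05 there were 6 of the 10, 5 higher and 1 lower, against 20.2% of all genes. In 3 of the 10, Ccne1, Ccne2 and Cdkn2c, every liver of group T lay above every liver of group C, which was so in 10.3% of all genes. The median difference of the 10 genes was 0.20, with 9 above 0, and that of all genes was 0.01. The calls depended on single livers: without 1 liver at a time, between 0 and 2 of the 10 genes were called. Without liver 2 of group C neither Ccne1 nor Cdkn2c was, at differences of 0.47 and 0.38. The array of this liver had the fewest spots well above background of all arrays, 15707. Its weakest signal still well above background, 6.248, was the highest such value of all arrays. This liver held the lowest value of group C in both genes, 5.93 in Ccne1 and 5.94 in Cdkn2c. Whether the weaker detection on this array bears on the calls was not tested.

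Cdkn2c, which encodes the Ink4 protein p18, is read by 1 probe on mm9 chr4:109333508-109333567. Its level was 6.16, 5.94 and 6.002 in the livers of group C, and 6.35, 6.55, 6.39 and 6.56 in those of group T. In the 6 livers of group G it ran from 5.98 to 6.20 with a median of 6.15. All livers of group T lay above all of the others, and the livers of groups C and G overlapped. Group T was higher than group C by 0.43 (SE 0.07, adjusted p = 0.0166 from limma), the rank by p being 78 of all genes. As no array of group C detected it, the fold has only a lower limit, at least 1.25-fold, taken against the weakest signal still well above background on the arrays of group C or the probe's own signal, whichever was higher. The group C array with the most spots well above background, 27681, did not detect it either. Fitted on the 15 arrays with the slide as a term and the RNA code as a random block, 2 changes made together, the difference was 0.43 (SE 0.07, adjusted p = 0.00893). It was 0.59 within slide 1 and 0.34 within slide 2, with adjusted p = 0.0758 and 0.124 from limma on the arrays of each slide. The adjusted p was 0.0622 without liver 2 of group C.

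Ccne1, which encodes cyclin E1, is read by 2 probes that gave different results. Averaged over the probes, its level was 6.18, 5.93 and 6.05 in the livers of group C. Those of group T were at 6.35, 6.70, 6.59 and 6.69. Those of group G ran from 6.10 to 6.61 with a median of 6.39. Groups C and T did not overlap, and group G spanned the space between and into both. Group T was higher than group C by 0.53 (SE 0.12, adjusted p = 0.0461 from limma), close to the threshold. Leaving out 1 liver at a time raised the adjusted p above the threshold in 9 of 13 cases, 6 of them livers of groups C and T and 3 of group G, with values up to 0.119. Probe a, on mm9 chr7:38882937-38882960, was 6.39, 5.94 and 6.18 in the livers of group C. Those of group T were at 6.66, 7.34, 7.31 and 7.53. Those of group G ran from 6.47 to 7.25 with a median of 6.86. For this probe every liver of groups T and G lay above every liver of group C. Its difference between T and C was 1.04 (SE 0.22, adjusted p = 0.0410 over 55681 probes, of which 1.25% were called), and the limit is at least 1.91-fold for group T and at least 1.46-fold for group G over group C. Probe b, on mm9 chr7:38885574-38885633, was well above background on no array, and its difference was 0.02 (SE 0.07). On the 15 arrays with the slide as a term and the RNA code as a random block the difference of the gene was 0.52 (SE 0.11, adjusted p = 0.0242), and it was 0.74 within slide 1 and 0.40 within slide 2, with adjusted p = 0.0567 and 0.132 from limma.

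Ccne2, which encodes cyclin E2, had 1 probe, which no array detected above background. Its values were 5.84, 5.76 and 5.86 in the livers of group C and 5.97, 5.87, 5.89 and 5.94 in those of group T, and ran from 5.74 to 5.85 with a median of 5.81 in 5 livers of group G, since the spot of liver 6 carried an outlier flag and was left out. The livers of group T lay above all others, by a small margin. This holds for averaged arrays only. The arrays of liver 4 of group T gave 5.79 and 6.09, and the lower value lay within those of groups C and G. The difference between T and C was 0.10 (SE 0.05, adjusted p = 0.290 from limma), and no fold is given.

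Among the D cyclins none was called. Ccnd1, the cyclin that answers to growth factor and Wnt signals, was 9.37, 8.11 and 7.79 in the livers of group C, 9.46, 8.11, 8.46 and 9.10 in group T, and 8.57 to 10.17 in group G with a median of 8.88. The groups overlapped widely, with 1 liver of group C above 4 of the 6 livers of group G. Its SD within groups, 0.74, exceeded that of 99.2% of genes, where the median gene had 0.11. The difference between T and C was 0.36 (SE 0.50, adjusted p = 0.747 from limma), so that a change of the size seen in Ccne1 was not detectable for this gene. It was 1.17 (adjusted p = 0.120) when arrays were scaled by their median in place of quantiles, and ran from 0.04 without liver 3 of group C to 0.83 without liver 1 of that group.

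Ccnd2 was 6.46, 6.31 and 6.40 in the livers of group C and 6.53, 6.43, 6.75 and 6.66 in those of group T, and ran from 6.65 to 6.75 in group G with a median of 6.70. Group T spread over the space between the other groups, and the difference between T and C was 0.20 (SE 0.07, adjusted p = 0.145 from limma). Ccnd3 was 8.97, 8.67 and 9.01 in the livers of group C. Those of group T were at 8.98, 9.26, 9.31 and 9.15. Those of group G ran from 8.81 to 9.38 with a median of 9.10. Its difference between T and C was 0.29 (SE 0.13, adjusted p = 0.229 from limma). Its probes differed. On probe b (mm9 chr17:47736579-47736638) every liver of group T lay above every liver of group C, with a difference of 0.45 (SE 0.14, adjusted p = 0.111 over all probes). On probe a (mm9 chr17:47736267-47736326) the difference was 0.13 (SE 0.13). When arrays were scaled by their median in place of quantiles, the difference of Ccnd3 was 1.13 with an adjusted p of 0.0364 from limma. The median difference of all genes was then 0.12, and 2861 genes were called higher and 15 lower. Ccnd1 rose likewise, from 0.36 to 1.17, where Cdkn2c was at 0.431 and 0.435. The rise was thus not particular to Ccnd3, and its cause was not tested.

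Of the Cip/Kip inhibitors, Cdkn1a was the 1 gene of the 10 with a negative difference between T and C. Its level was 7.12, 6.76 and 6.61 in the livers of group C and 6.67, 6.30, 6.39 and 6.33 in those of group T, and ran from 6.34 to 6.71 in group G with a median of 6.47. The groups overlapped through the first liver of group T. The difference was -0.41 (SE 0.13, adjusted p = 0.102 from limma) and was -0.11 when arrays were scaled by their median. It was -1.34 with the processed signal of the scanner, just short of the threshold, and -0.37 (adjusted p = 0.0495, past the threshold) with all 15 arrays as separate samples. The probe with 10 spots on each array (probe a, mm9 chr17:29237377-29237436) is the only 1 of its 3 probes detected on all arrays. It was 8.70, 7.95 and 7.70 in group C and 8.18, 7.02, 7.41 and 6.89 in group T, a difference of -0.74 (SE 0.32, adjusted p = 0.243 over all probes). Cdkn1b ran from 6.86 to 7.13 in group C, from 6.96 to 7.19 in group T and from 6.89 to 7.27 in group G, and its difference of 0.09 (SE 0.09, adjusted p = 0.648 from limma) lay within the spread between livers.

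Of the other Ink4 genes, Cdkn2a was 6.05, 5.77 and 6.14 in the livers of group C. Those of group T were at 6.05, 6.09, 6.36 and 6.25. Those of group G ran from 6.06 to 6.24 with a median of 6.12. The groups overlapped, with a difference between T and C of 0.20 (SE 0.09, adjusted p = 0.247 from limma). Whether its probes read the transcript of p16, that of Arf, the other product of the locus, or both was not analysed here. Cdkn2b was near the background throughout, from 5.95 to 6.15 in group C, from 5.98 to 6.11 in group T and from 5.97 to 6.06 in group G, with a difference between T and C of 0.01 (SE 0.05, adjusted p = 0.927 from limma). Cdkn2c was the only Ink4 gene of the 3 called in this comparison.

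**Figure D2:**
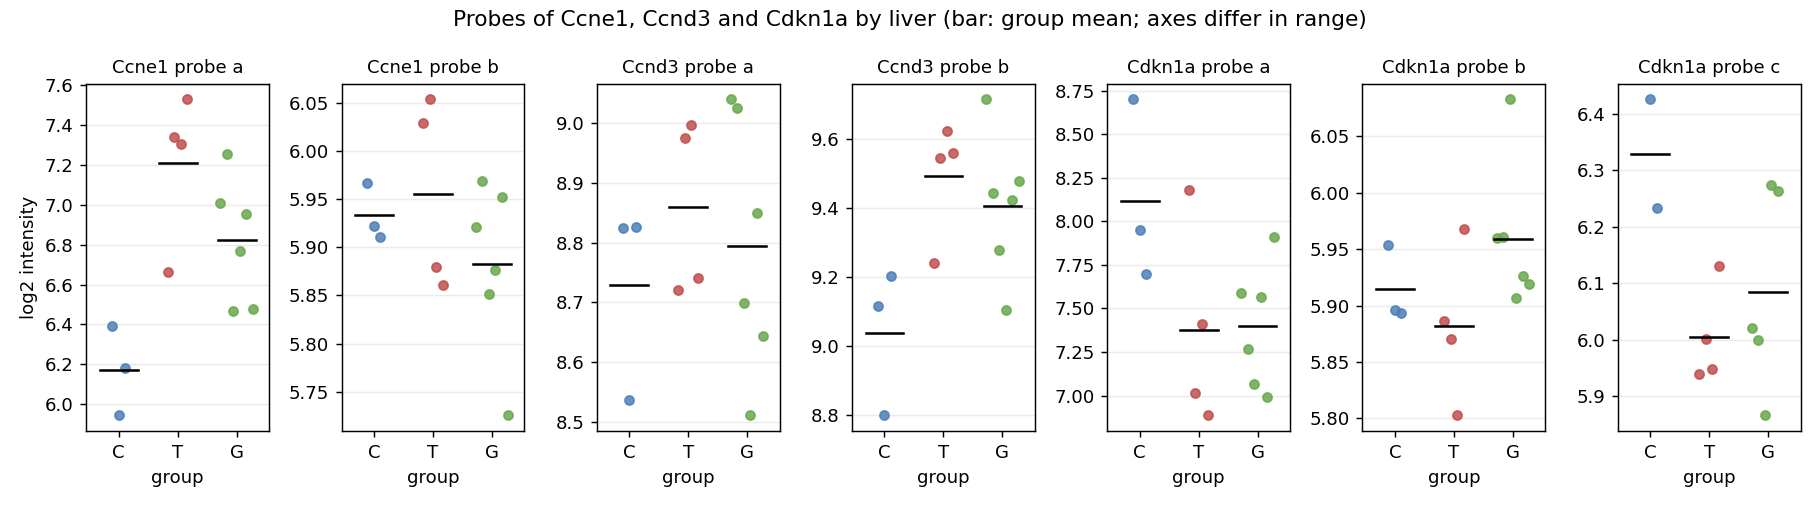
Log2 intensity of each probe of Ccne1, Ccnd3 and Cdkn1a in each liver, with a bar at the group mean and axes that differ in range. Ccne1 probe a has means of 6.17 in group C and 7.21 in group T where probe b has 5.93 and 5.96, and Cdkn1a probe a has means of 8.12 and 7.37 with overlap of the groups.

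The second comparison asks what the Gas1 plasmid changed in livers that had all received DEN. None of the 10 genes was called in group G against group T, against 0.132% of all genes. At an unadjusted p under 0.05 there were 3, Cdkn2c, Ccne1 and Ccne2, all lower in group G, against 6.62% of all genes with such a p and a lower level. In Cdkn2c and Ccne2 every liver of group G lay below every liver of group T, which was so in 1.98% of all genes. Cdkn2c was lower by 0.33 (difference -0.33, SE 0.06, adjusted p = 0.0658 from limma), just short of the threshold. On the 15 arrays with the slide as a term and the RNA code as a random block the value was -0.33 (SE 0.06, adjusted p = 0.0448), and which of these changes moved the p was not tested. It was -0.43 within slide 1 and -0.29 within slide 2. Without liver 1 of group T the adjusted p was 0.0329, and without liver 2 of group T it was 0.197.

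Ccne1 differed by -0.23 (SE 0.10, adjusted p = 0.453 from limma) and the groups overlapped, with -0.51 within slide 1 and -0.03 within slide 2. Ccne2 differed by -0.11 (SE 0.04, adjusted p = 0.361) near the background. The D cyclins differed by 0.43 (SE 0.42) in Ccnd1, 0.11 (SE 0.06) in Ccnd2 and -0.07 (SE 0.11) in Ccnd3. Among the other inhibitors the differences lay between -0.06 in Cdkn2a and 0.07 in Cdkn1a, all with an adjusted p of at least 0.826 from limma. The median difference of the 10 genes was -0.05, with 4 above 0, and that of all genes was -0.01.

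Against group C, group G differed in none of the 10 genes at the threshold, against 0.427% of all genes. At an unadjusted p under 0.05 there were 3 of the 10, Ccnd2 and Ccne1 higher and Cdkn1a lower, against 13.3% of all genes. Ccnd2 was higher by 0.31 (SE 0.07, adjusted p = 0.0655 from limma), and all 6 livers of group G lay above the 3 of group C, which was so in 2.78% of all genes and in this gene alone of the 10. With both the slide term and the random block on the 15 arrays the adjusted p of Ccnd2 was 0.0457 from limma, and its difference was 0.34 within slide 1 and 0.27 within slide 2. Ccne1 was higher by 0.30 (SE 0.11, adjusted p = 0.279) and Cdkn1a lower, at -0.34 (SE 0.12, adjusted p = 0.237). Cdkn2c differed by 0.10 (SE 0.07, adjusted p = 0.588). Comparisons that share a group share its livers, so the values of the 3 comparisons are not independent of each other.

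**Figure D3:**
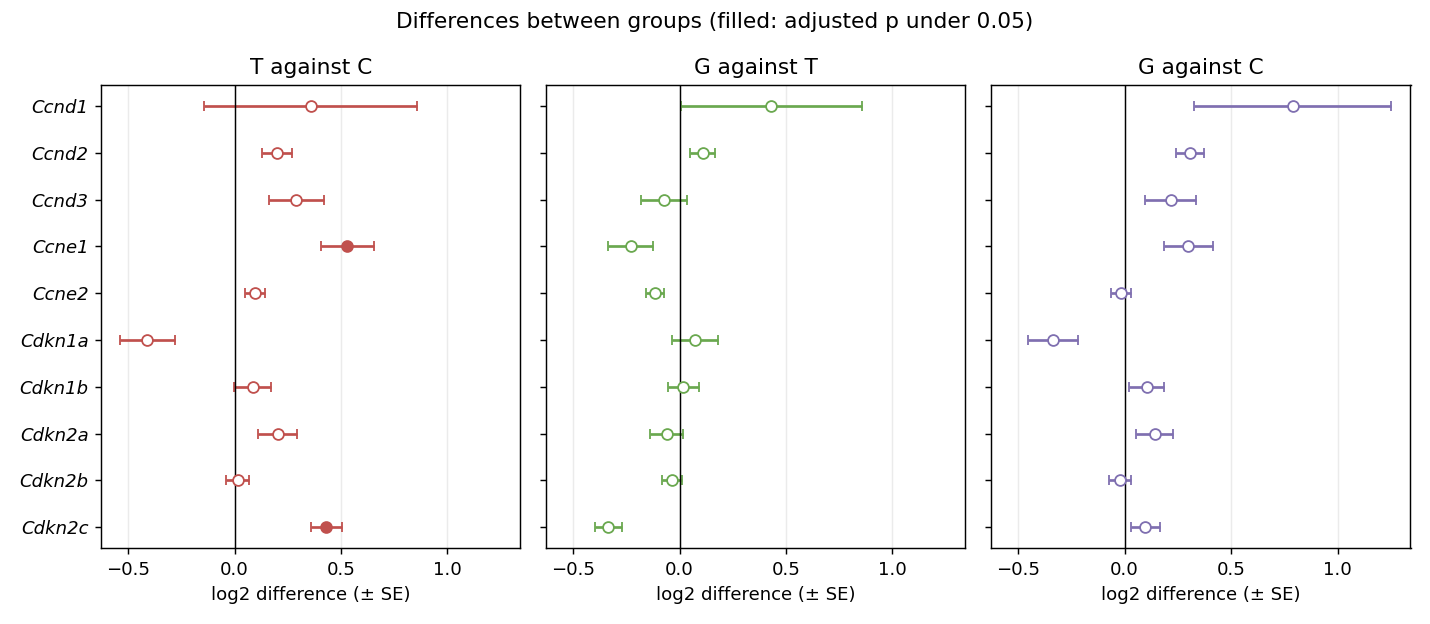
Log2 difference and SE (bars) of the 10 genes in the 3 comparisons, T against C first, then G against T, then G against C, with filled points at an adjusted p under 0.05. Ccne1 and Cdkn2c are the filled points, both in T against C, and Ccnd1 has the widest bars.

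The study followed genes through a triangular course, from those that differ between T and C, then to the genes among them that also differ between G and T, then to the genes left that do not pass the test between G and C. With each adjustment made over the genes that reached the step, 523 genes passed the first step, 244 the second and 204 all 3, or 0.926% of all genes. These counts come from the fit used here and differ from those the study printed. Cdkn2c passed all steps, with an adjusted p of 0.00286 from limma at the second and 0.240 at the last. Over all genes, the same difference between G and T had an adjusted p of 0.0658 from limma, above the threshold. The second step adjusts only over genes chosen for a difference of group T, so its p is no test on its own. Ccne1 stopped at the second step, with 0.0824, and the other 8 genes did not enter. The livers of group T serve in the first and second step alike, so these steps are not independent of each other.

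Other genes of the same machinery give the setting. Of 27 further genes of the G1/S transition, 1 was called in T against C, against 2.37% of all genes. This was E2f6, a repressive member of the E2F family, which was higher by 0.36 (SE 0.07, adjusted p = 0.0202 from limma). At an unadjusted p under 0.05, 8 of the 27 were higher and 0 lower, against 20.2% of all genes in either direction, and their median difference was 0.09 against 0.01 in all genes. Cks1b, a small CDK-binding protein that helps to destroy p27, was higher by 0.53 (SE 0.15, adjusted p = 0.0719). The partner kinases were not called, with differences of -0.09 (SE 0.07) in Cdk4, 0.05 (SE 0.06) in Cdk6, near the background, and 0.20 (SE 0.11) in Cdk2. None of the 27 was called in G against T. E2f2, an activating E2F, lay lower in every liver of group G than in any of group T (difference -0.67, SE 0.12, adjusted p = 0.0658 from limma), with group means of 7.47 in C, 7.83 in T and 7.17 in G. Cks1b, the kinases, E2f4 and E2f2 are named here after their values were seen.

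**Figure D4:**
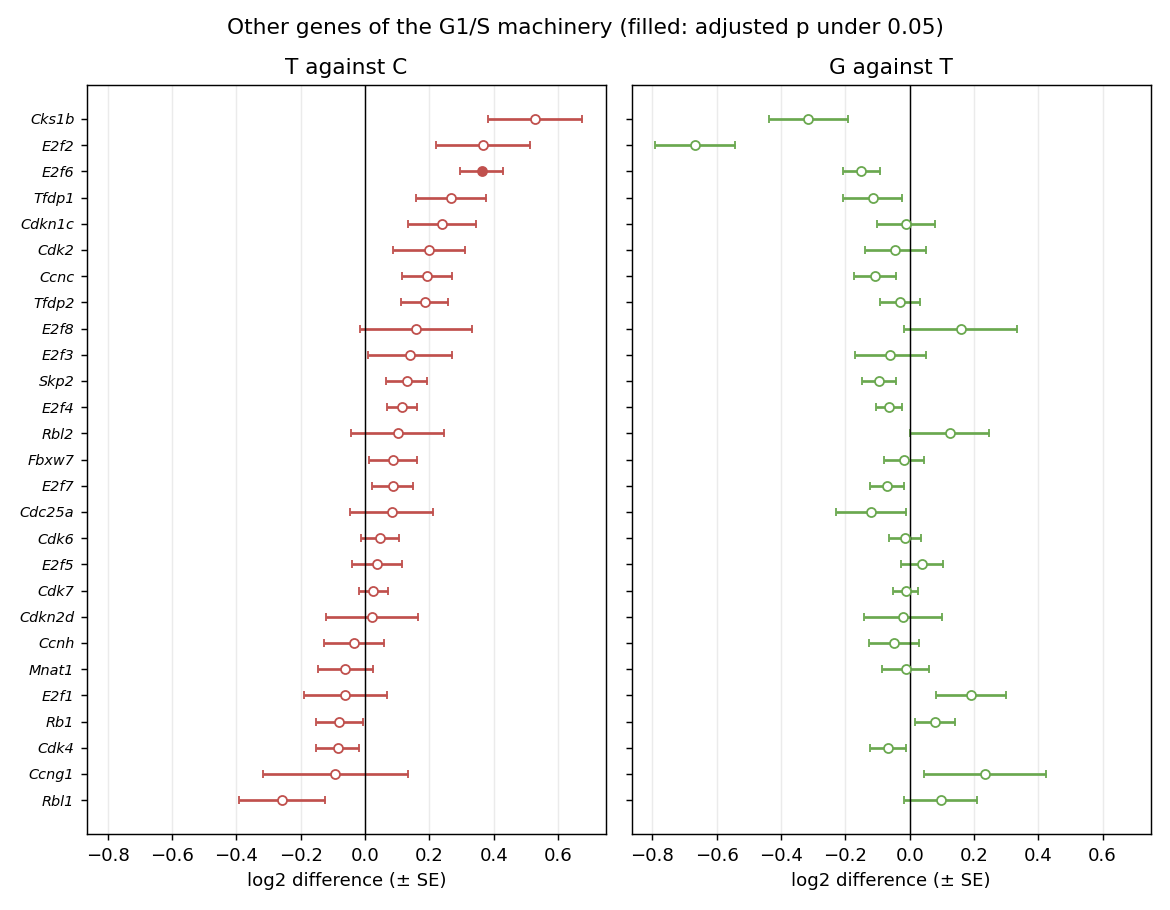
Log2 difference and SE (bars) of 27 other genes of the G1/S machinery in T against C and in G against T, in the order of the former, with filled points at an adjusted p under 0.05. E2f6 at 0.36 is the only filled point, and E2f2 is at 0.37 in the first panel and at -0.67 in the second.

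Genes that cells express while they copy DNA and divide were followed as a readout of division. Of 22 such genes, 0 were called by limma in T against C. At an unadjusted p under 0.05 there was 1, against 20.2% of all genes. The median difference of the 22 was 0.00. Part of the list was dim: Aurkb, Cdc6, Cdk1, Top2a and Tyms were well above background on 0 of 15 arrays, and Ccnb1 on 6. Mcm3, Mcm4, Mcm6, Mcm7, Pcna, Rrm1, Rrm2 and Tk1 were so on all 15. The median thus rests partly on values near the background, where a change may be missed. The smallest p belonged to Ccnb1, cyclin B1, at -0.19 (SE 0.08, adjusted p = 0.218), and to Pcna, the sliding clamp of DNA polymerase, at -0.18 (SE 0.10, adjusted p = 0.317). None was called in G against T or in G against C, with 1 gene at an unadjusted p under 0.05 in each. In G against T this was Mcm6, higher by 0.65 (SE 0.23, adjusted p = 0.320 from limma), with every liver of group G above every liver of group T. The median of the list there was 0.05. In G against C it was Rrm1, at -0.19 (SE 0.09, adjusted p = 0.372 from limma), against 13.3% of all genes with such a p. Mcm6 and Rrm1 are named here after their values were seen.

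The counts of the next lists stand against 2.37% of all genes called in T against C. Of 15 regulators of the D cyclins, 1 was called, Egfr, the receptor of epidermal growth factor, higher by 1.17 (SE 0.27, adjusted p = 0.0457 from limma). Of 16 regulators of the Ink4 genes, Bmi1 was called, a Polycomb protein known to repress Cdkn2a, higher by 0.65 (SE 0.12, adjusted p = 0.0200). Cdkn2a had its own positive difference in this comparison, 0.20, which did not pass the test. Of 20 p53 targets, Cdkn1a among them, 2 were called, Aen, a nuclease of apoptosis, higher by 0.64 (SE 0.13, adjusted p = 0.0301), and Btg2, an antiproliferative gene, higher by 0.46 (SE 0.10, adjusted p = 0.0321). Cdkn1a differed in the opposite direction to these 2, and the median of the 20 genes was -0.02. None of the genes of these lists was called in G against T or G against C.

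The genes whose levels followed those of the called genes most closely were picked by Pearson's r over the 13 livers among 7941 genes well above background on all arrays, so no p is given. For Cdkn2c they were Klhdc4 (r = 0.942, Spearman's rho = 0.857), Qsox1 (r = 0.930, rho = 0.885) and Tmed3 (r = 0.906, rho = 0.775), where the median r of the candidates was 0.02. Within the 6 livers of group G alone, r was 0.654, 0.503 and 0.342. For Ccne1 they were Ttc7 (r = 0.902, rho = 0.929), Ripk4 (r = 0.888, rho = 0.896) and Adarb1 (r = 0.884, rho = 0.852), and within group G r was 0.724, 0.861 and 0.810. Without the 2 livers farthest from the median of Cdkn2c, both of group T, r was between 0.790 and 0.870, and without those of Ccne1, 1 of group C and 1 of group T, between 0.847 and 0.881. As the livers fall into groups, part of each r is the difference between the groups.

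Markers of other cells were set beside these results. In T against C, 2 of the 53 measured markers of 9 cell types were called, against 2.37% of all genes. They were Emr1 of Kupffer cells and macrophages and Ttr of hepatocytes. Emr1 was higher by 0.31 (SE 0.06, adjusted p = 0.0267 from limma). Ttr was lower (difference -1.004, SE 0.12, adjusted p = 0.00425 from limma). Both lists were mixed. At an unadjusted p under 0.05 from limma, 2 of the 6 macrophage markers were higher and 1, Cd68, lower (-0.25). Of the 8 hepatocyte markers, 3 were higher, Apoa1 (0.55), Hnf4a (0.37) and Serpina1a (0.21), and 2 lower, Ttr and Alb (-0.36). Such a p was found in 20.2% of all genes. The mean log2 level of the 6 macrophage markers was between 7.63 and 7.96 in group C, between 7.70 and 8.08 in group T and between 7.72 and 8.12 in group G. That of the 8 hepatocyte markers was between 15.02 and 15.15 in group C, between 14.95 and 15.14 in group T and between 14.85 and 15.24 in group G. The 5 erythroid markers were at 8.99 to 9.59 in group C, 9.73 to 9.92 in group T and 9.20 to 10.29 in group G, so that groups C and T did not overlap. The 5 neutrophil markers were at 6.26 to 6.63, 6.38 to 7.26 and 6.30 to 6.69. In the remaining lists, of cholangiocytes, stellate cells and fibroblasts, endothelial cells, T cells and B cells, no marker was called, with the smallest p in Krt7 and Krt19, Pdgfrb and Col1a2, Lyve1 and Cdh5, Cd3g and Cd3e, and Cd79a and Ms4a1. The part of these cells in the levels of Ccne1 and Cdkn2c was not tested.

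**Figure D5:**
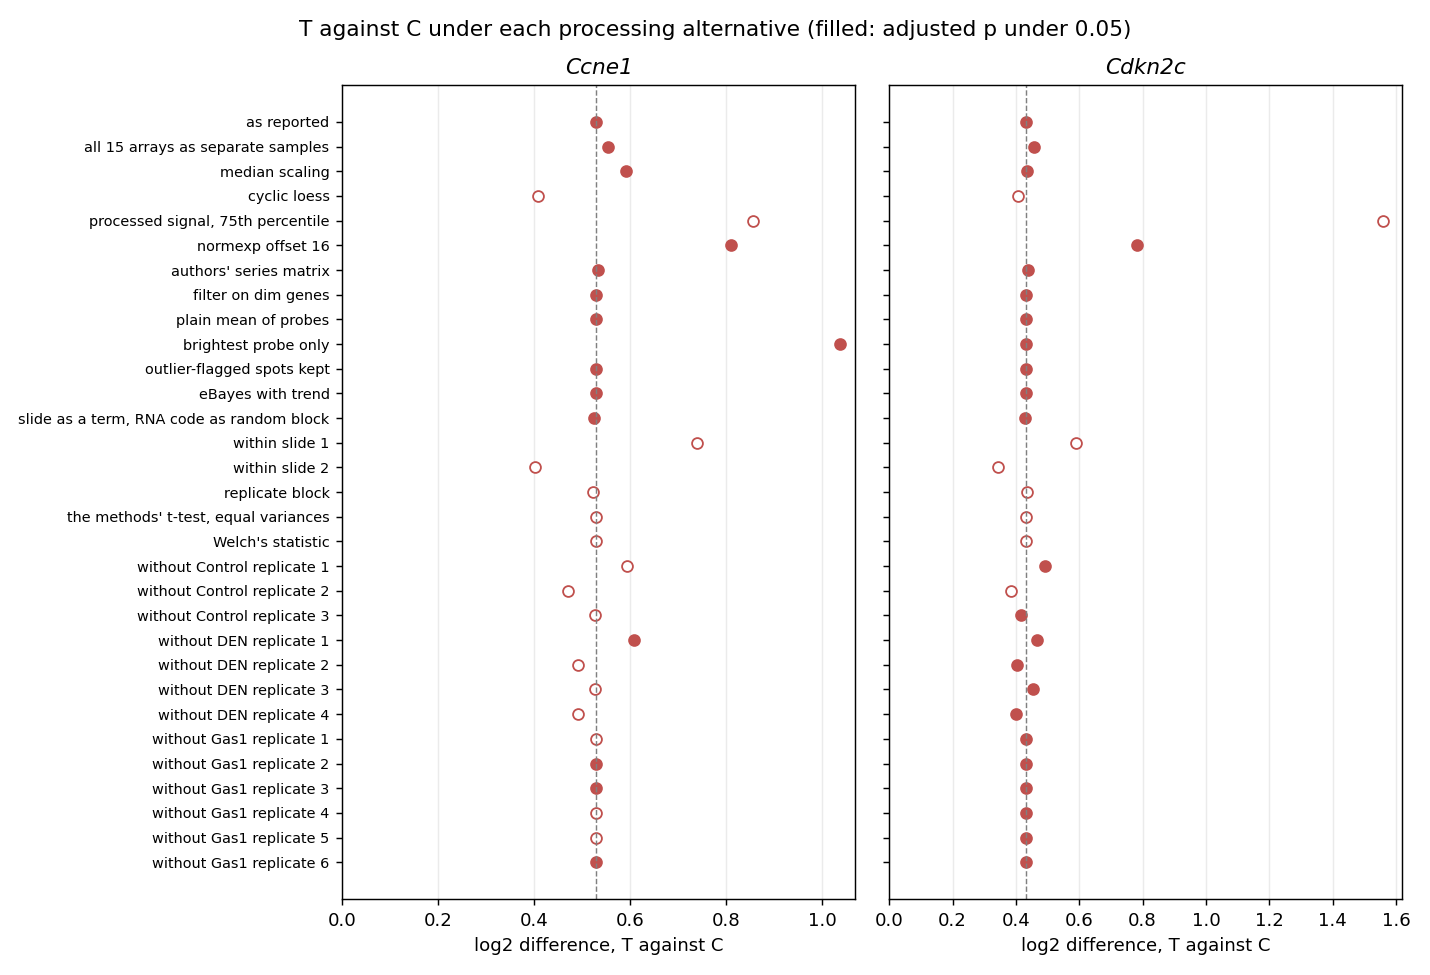
Log2 difference of Ccne1 and Cdkn2c between T and C as reported and under each of 30 processing alternatives, with filled points at an adjusted p under 0.05 and a dashed line at the reported value. All values are above 0, from 0.40 to 1.04 in Ccne1 and from 0.34 to 1.56 in Cdkn2c, and the point is filled in 14 of the 30 alternatives for Ccne1 and in 22 for Cdkn2c. The filter on dim genes, filled for both, keeps genes detected on all arrays of any group. Cdkn2c passes it through group T alone and Ccne1 through groups T and G, so these points give no separate support.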

How the data were processed

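Liver RNA was labelled with Cy3 and hybridised to SurePrint G3 mouse arrays (design Agilent-028005). The labels name a TRIzol extraction and the study's methods a spin-column kit. The authors deposited the spot intensity and local background of each array as read by Agilent Feature Extraction 10.7.3.1, not normalized between arrays, with flags of the software for spots that were outliers or well above background. The authors' series table holds log2 values after normexp correction and quantile normalization, and served as an alternative. Gene values rebuilt here had a median absolute difference of 0.00268 from it, and 99.0% lay within 0.05.

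The deposited mean intensity was corrected with normexp (offset 50, fitted to every spot). Its log2 was then quantile normalized across arrays with the control spots left out (59305 spots remained). An offset keeps dim values above 0 and shrinks their differences. Quantile normalization removes any shift of most genes at once. Spots with an outlier flag were set to missing (218 to 3692 per array), spots of a probe were averaged, and probes of a symbol were centred before averaging, which gave 22032 symbols from 29522 probes. Probe names and mm9 positions are those of the files, and exons and UTRs of mm9 were not analysed here. Promoters are from RefSeq tables of GRCm38.p6, a different build, and are printed without conversion.

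Groups came from the sample titles. Replicate numbers were taken as counts within a group and not as pairs. Deviations of same-numbered livers correlated between -0.314 and 0.254 over 10 pairs. Livers of different number were not compared, so these values cannot decide whether the numbers pair the samples. Differences were fitted with limma 3.58.1 in R 4.3.3 (lmFit on group means, eBayes, tables with data.table, version 1.17.8), with Benjamini-Hochberg adjustment over all genes. The script was tested on simulated data. Arrays have no read depth, and the number of livers limits the precision. The genes and lists were chosen with earlier results of these data known. Named are all 10 genes, list genes called in any comparison or otherwise the 2 of a list with the smallest p in T against C, and the 3 genes most correlated with each called gene. Alternatives covered the scaling, the offset, the authors' table, a filter on dim genes, the treatment of probes and flags, the slide (with the RNA code as a random block), the test, and each liver left out. The result of 1 further list is not reported here.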

Additional observations from a re-analysis of the deposited data

Results flagged for a closer look

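In 20 sets of livers, the 10 genes in groups T and G, the highest and lowest liver were checked with Dixon's ratio, which chance exceeds in about 1 of 20 sets. The ratio was exceeded in 1. Cdkn2c in liver 4 of group G was 5.98, below the next lowest liver of that group at 6.13, and the gap was 0.696 of the whole range of the group. The probe was well above background on 2 of the 6 arrays of group G, so this value lies near the background. Without this liver the difference between G and T was -0.30 (SE 0.06, adjusted p = 0.0811 from limma), against -0.33 (adjusted p = 0.0658) with it.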

How the results depend on the processing

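Each of the 30 differences was recomputed under up to 30 alternatives, 891 values in all. None reversed a call, 24 lost a call and 8 gained one, and 16 values of uncalled genes changed sign, among them Ccne2, Cdkn2a and Cdkn2b in T against C with the processed signal (-0.71, -0.24 and -0.81). In T against C, 2 genes were called as reported. This became 4 with all 15 arrays as separate samples (Ccnd2 and Cdkn1a in addition). It became 0 with cyclic loess, with the processed signal, within slide 1, within slide 2 and with the replicate block. It was also 0 with a t-test of equal variances and with Welch's statistic after adjustment. Before adjustment the t-test of equal variances gave 2 of the 10 genes, Ccne1 and Cdkn2c, and 3827 genes in all, and 0 after it. For the arrays the study's methods name the multtest package, which was not run here. Leaving out 1 liver gave 0 to 2 called genes. It was 0 without liver 2 of group C, and 1, always Cdkn2c, without livers 1 or 3 of group C, livers 2, 3 or 4 of group T, or livers 1, 4 or 5 of group G. With the replicate number as a block, the adjusted p from limma was 0.0639 for Cdkn2c and 0.0892 for Ccne1, and 278 genes were called in place of 523. Whether these numbers pair the livers is not known. In G against T, 0 genes were called as reported, and 1, Cdkn2c, with all arrays separate and with the slide as a term plus the RNA code as a random block on the 15 arrays, and 0 to 1 when 1 liver was left out (1 without liver 1 of group T). In G against C, 0 genes were called, and 1, Ccnd2, with all arrays separate and with the slide term plus random block, and 0 when any 1 liver was left out. The replicate block gave 0 in both. The number of all genes called in T against C was 523, and 2876 (2861 higher) with median scaling, 57 with the processed signal, 186 with cyclic loess, 1949 with all arrays separate, 814 with the slide term plus random block, 46 and 17 within the slides, 0 by either t statistic, and 95 to 746 with 1 liver left out. Median scaling moved the median of all genes by 0.12 and the processed signal by -0.40. The cause of these changes was not tested. Genes near the background (Ccne2, Cdkn2b, Cdkn2a) are limited by signal. With an offset of 16 the difference between T and C was 0.78 in Cdkn2c and 0.81 in Ccne1.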
